A study of Mus musculus with 16 samples.

Results

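The genes described here make the presynaptic terminal, from the synaptic vesicle and its fusion machinery to the scaffold of the active zone. They were taken from a list of 38 genes, and a gene's probes were those whose RefSeq accession belongs to it. Of the 38 genes 37 had at least 1 named probe, out of 21364 gene symbols on the array, and Syt5 was not analysed here. Where a gene had several probes, the one with the brightest mean over the arrays stood for it. Expression was measured on 16 one-colour arrays of primary cultures from the cerebral cortex of C57BL/6 mice, 4 arrays in each of 4 groups. Neuron control and neuron Klotho cultures were grown from cortex of embryonic day 16 and received phosphate-buffered saline or 1 nM recombinant secreted Klotho for 24 h after 14 days in vitro. Astrocyte control and astrocyte Klotho cultures received the same treatments, were grown in serum from pups of postnatal day 0 to 5 according to the growth protocol, and were shaken for 15 h to a stated purity above 98%. The astrocyte labels also carry embryonic day 16. Separate cultures or animals behind the 4 arrays of a group are not recorded in the labels. The p-values are therefore a measure of spread among these samples, some or all of which may be technical.

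At a chemical synapse, vesicles are loaded with transmitter, docked and primed at the active zone, and fused with the plasma membrane when calcium enters the terminal. Fusion is driven by the SNARE proteins on vesicle and plasma membrane, triggered by synaptotagmins and adjusted by complexins and Munc13 proteins, and the vesicle membrane is then retrieved by endocytosis. Cortical neurons in culture form such terminals, whereas astrocytes have none, although several members of these families also serve general membrane traffic in other cells.

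The stretches of 250 bases upstream of the transcription start are shown for 4 members: Syn1, Syt1 and Sh3gl2, with large differences between neuron and astrocyte cultures, and Syt11, with a small one. They were taken from RefSeq's promoter table for GRCm38.p6, which held 43 promoters of 30 member genes among 32851 in all. Capitals mark matches, on either strand, to the letters TTCAGCACC (the left part of RE1, the element bound by the neuronal gene repressor REST), TGACGTCA (the cAMP response element) and GGGCGG (the GC box, bound by Sp1). The Syn1 stretch is chrX:20920919-20921168 on the minus strand, the Syt1 stretch chr10:109010976-109011225 on the minus strand, the Sh3gl2 stretch chr4:85205206-85205455 on the plus strand and the Syt11 stretch chr3:88772600-88772849 on the minus strand.
Syn1: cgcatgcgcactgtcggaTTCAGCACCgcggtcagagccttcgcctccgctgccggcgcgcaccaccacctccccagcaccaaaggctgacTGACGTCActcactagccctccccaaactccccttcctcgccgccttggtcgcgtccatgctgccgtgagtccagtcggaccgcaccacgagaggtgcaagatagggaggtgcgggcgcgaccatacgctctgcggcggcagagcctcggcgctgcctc
Syt1: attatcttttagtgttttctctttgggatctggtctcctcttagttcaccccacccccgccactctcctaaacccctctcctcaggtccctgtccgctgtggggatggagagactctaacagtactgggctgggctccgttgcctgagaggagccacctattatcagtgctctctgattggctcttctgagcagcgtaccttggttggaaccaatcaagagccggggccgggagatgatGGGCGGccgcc
Sh3gl2: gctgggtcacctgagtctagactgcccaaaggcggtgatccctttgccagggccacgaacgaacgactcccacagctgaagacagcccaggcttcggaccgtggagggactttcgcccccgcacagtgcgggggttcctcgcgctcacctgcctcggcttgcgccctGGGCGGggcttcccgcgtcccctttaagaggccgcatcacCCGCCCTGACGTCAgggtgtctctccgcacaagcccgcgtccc
Syt11: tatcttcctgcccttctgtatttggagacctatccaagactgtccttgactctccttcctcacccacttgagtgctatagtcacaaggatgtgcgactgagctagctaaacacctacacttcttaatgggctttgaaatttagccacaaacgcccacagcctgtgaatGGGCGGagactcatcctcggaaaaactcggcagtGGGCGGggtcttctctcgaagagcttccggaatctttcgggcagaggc
The RE1 letters were present in the promoter of 1 member gene, Syn1, and in 0.301% of all promoters. The cAMP response element lay 159 bases before the start of Syn1 and 37 before that of Sh3gl2, the only members held there with it, against 1.55% of all promoters. The GC box was common, in 22 of the 30 genes, 53.5% of the members' promoters and 32.7% of all, and it stood 11 bases before the start of Syt1 82 and 48 before that of Syt11 and 83 and 43 before that of Sh3gl2, the last directly beside the cAMP response element. A second Syt1 promoter, chr10:109009112-109009361 on the minus strand, held no match and is not shown. The search covered both strands, and no 2 motifs overlapped in these 4 stretches. These matches describe the sequence and say nothing of binding in these cultures.

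Levels are given as log2 of the processed intensity minus the 75th percentile of the array, so a level of 0 is that percentile, and a probe's level was not set against another probe's. A scanner flag marked a probe as well above background or not. Spots well above background made up 57.5% to 67.3% of an array. All neuron arrays lay on 1 slide, row 1 holding the controls and row 2 the Klotho cultures. The treatment of 4 astrocyte arrays differs between the scanner files and the deposited value table. The scanner files were followed, which put astrocyte controls on a slide of their own and astrocyte Klotho on another. By the value table, astrocyte controls lay in column 3 and astrocyte Klotho in column 4 of both slides. Treatment and slide row in neurons, treatment and slide in astrocytes by the scanner files, and cell type and slide therefore cannot be told apart. The summed level of a marker list is log2 of the sum of its genes' linear levels. For 10 pan-neuronal markers it was 8.65 to 8.83 in neuron control and 3.25 to 4.22 in astrocyte control arrays, with Nefl above background on no astrocyte array. For 9 astrocyte markers it was 7.05 to 7.68 and 8.28 to 9.04, so the neuron cultures also held astrocyte transcripts, and for 7 microglia markers it was 0.21 to 0.89 and 6.28 to 6.74. Their part in the differences between cultures was not tested.

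Presynaptic genes were far lower in the astrocyte cultures than in the neuron cultures. Of the 37 genes 36 were well above background on at least 1 array, 35 of them on all 8 neuron arrays, while 24 were so on all 8 astrocyte arrays, 9 on some of them and 4 on none. Syt2, a fast calcium sensor of vesicle fusion, was above background on no array. Among controls, 30 of the 36 members tested with limma were lower in astrocytes and 1, Vamp1, was higher, against 30.9% of all probes and genes tested that were lower and 22.3% that were higher. The median difference of the members was -4.20 on the log2 scale, and that of everything tested was -0.22. Among Klotho cultures, which are other arrays, 31 of 35 members were lower and 0 higher, against 36.2% lower and 27.6% higher of everything tested, with medians of -4.68 and -0.19. The same 30 genes were lower in both comparisons. Some members passed the filter only through the neuron arrays, and their astrocyte signals lie at background. With features above background on every compared array, the members' medians were -3.27 among controls and -3.41 among Klotho cultures. Those of everything tested were then -0.16 and -0.20, and 20 members were lower in each comparison. Below, array values are listed in replicate order, and a change is the log2 difference of astrocytes minus neurons, among controls first and among Klotho cultures second. In bulk cultures such as these, fewer cells of a type and less RNA per cell cannot be told apart.

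**Figure D1:**
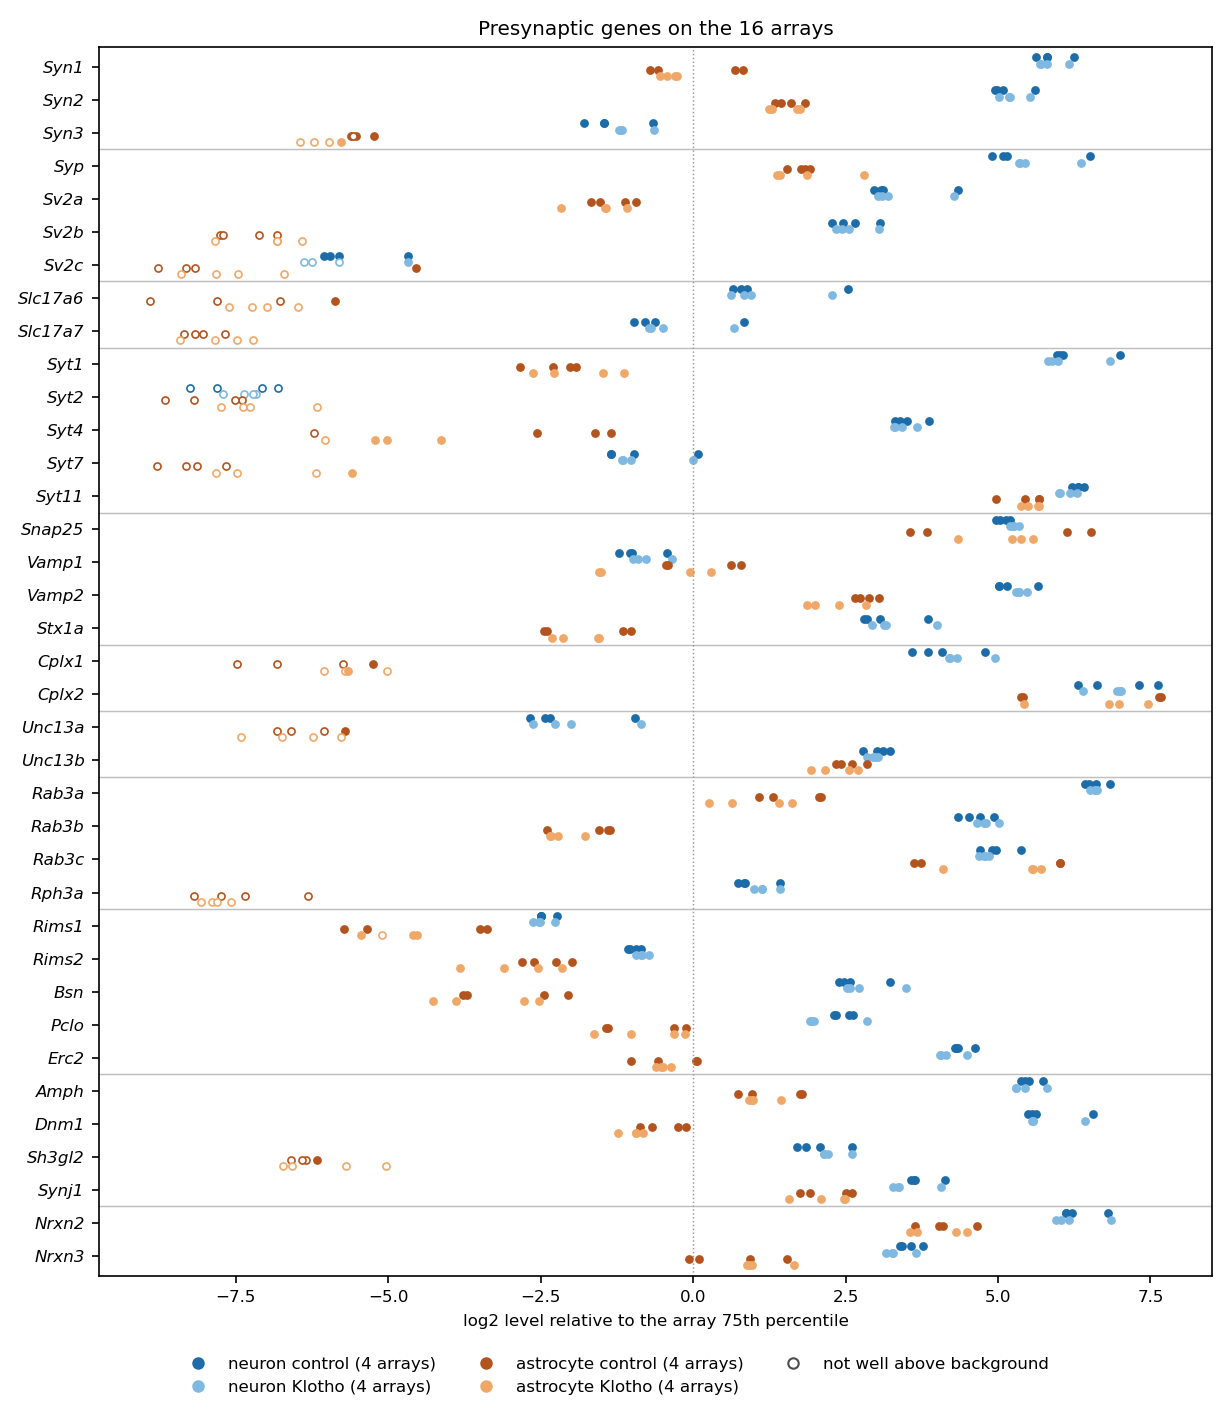
Log2 level of each presynaptic gene, relative to the array's 75th percentile, on each of the 16 arrays by group, with open symbols where the probe was not well above background. Most genes lie several log2 units lower on the astrocyte arrays, while Snap25, Cplx2, Rab3c and Vamp1 are among those whose arrays overlap between the cultures.

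The synapsins, which tether vesicles to one another and to actin in the reserve pool, were lower in astrocytes in 3 of 3 cases. Syn1 stood at 6.24, 5.63, 5.80 and 5.80 on the neuron control arrays and at 0.82, 0.69, -0.71 and -0.58 on the astrocyte control arrays. On the Klotho arrays it stood at 6.16, 5.80, 5.69 and 5.71 in neurons and -0.42, -0.27, -0.55 and -0.30 in astrocytes. The neuron arrays were all above the astrocyte arrays, and Syn1 was lower in astrocytes, with changes of -5.81 ± 0.38 (SE, n = 4 against 4, as in all changes here) and -6.23 ± 0.18 (adjusted p = 2.34e-06 and 6.36e-09). Syn3, an early synapsin, was at -0.66, -1.79, -1.46 and -1.46 in neuron control and -0.64, -1.17, -1.21 and -1.19 in neuron Klotho cultures, and at -5.52, -5.61, -5.58 and -5.23 (control) and -6.22, -6.44, -5.97 and -5.77 (Klotho) in the astrocyte groups. It was above background on 3 astrocyte control arrays and 1 astrocyte Klotho array. Its neuron and astrocyte arrays did not overlap either, and the changes were -4.14 and -5.05, beside -3.60 and -3.73 for Syn2.

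Among the proteins of the vesicle membrane, Syp, the abundant vesicle marker synaptophysin, was lower in astrocytes, with changes of -3.65 and -3.76, as was Sv2a, a vesicle glycoprotein and the target of levetiracetam, with -4.69 and -4.93. Sv2b, its close relative, was at 3.06, 2.27, 2.66 and 2.46 on the neuron control arrays and 3.05, 2.45, 2.56 and 2.35 on the neuron Klotho arrays. It was well above background on none of the 8 astrocyte arrays, where the signals of -7.75, -7.11, -7.71 and -6.83 (control) and -6.42, -6.82, -7.84 and -6.82 (Klotho) are only upper limits. Where a gene is below background on every array of a group, the fold is given as a bound. It was taken on each array against the lowest signal well above background, or against the gene's own signal where that was higher. Signals that were not flagged may lie above that lowest signal, so each bound written as at least is approximate. Sv2b was by this bound at least 471-fold lower among controls and at least 344-fold lower among Klotho cultures. Sv2c, the member best known from the basal ganglia, did not pass the test among controls (-1.82, adjusted p = 0.104) and was too dim to be tested among Klotho cultures.

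The vesicular glutamate transporters, which fill vesicles of excitatory terminals, were lower in astrocytes in 2 of 2 cases. The size of their differences depends on astrocyte signals at background. Slc17a6 (VGLUT2) was at 2.54, 0.79, 0.89 and 0.66 in neuron control and 2.28, 0.95, 0.83 and 0.63 in neuron Klotho cultures, while its astrocyte levels were -6.78, -8.91, -7.80 and -5.88 (control) and -7.61, -6.98, -6.48 and -7.23 (Klotho). It was well above background on 1 of 4 astrocyte control arrays and no astrocyte Klotho array, and was lower, with a change of -8.56 ± 0.67 among controls and a fold of at least 128 among Klotho cultures. Slc17a7 (VGLUT1), the transporter of most cortical excitatory neurons, was at 0.83, -0.79, -0.62 and -0.97 (control) and 0.67, -0.49, -0.69 and -0.73 (Klotho) on the neuron arrays and below background on all 8 astrocyte arrays, at -8.34, -8.03, -7.68 and -8.16 (control) and -7.48, -7.21, -7.84 and -8.42 (Klotho). It was at least 58.9-fold and at least 45.6-fold lower. The first array of both neuron groups was the highest for either transporter.

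The synaptotagmins, vesicle proteins of which several sense calcium, were lower in 4 of 4 tested cases, but by very different amounts. Syt1, the sensor of fast release, was at 7.0, 6.01, 6.06 and 5.97 on neuron control and 6.84, 5.88, 5.98 and 5.82 on neuron Klotho arrays, and at -2.02, -1.92, -2.29 and -2.84 (control) and -1.13, -1.47, -2.28 and -2.63 (Klotho) on the astrocyte arrays. No astrocyte array came near a neuron array, and the change was -8.53 ± 0.31 among controls (adjusted p = 1.12e-07) and -8.01 ± 0.36 among Klotho cultures (adjusted p = 8.06e-08). Syt7, the slower sensor of asynchronous release, was at 0.08, -0.97, -1.35 and -1.34 (control) and 0.00, -1.01, -1.15 and -1.17 (Klotho) in neurons and at -8.31, -8.79, -7.66 and -8.13 (control) and -7.48, -6.19, -7.83 and -5.60 (Klotho) in astrocytes. It was above background on 1 astrocyte array, a Klotho array, and was at least 41.3-fold lower among controls. Syt4, induced by activity and found also on non-synaptic vesicles, was lower, with changes of -6.45 ± 0.94 and -8.53 ± 0.35, with 3 of 4 astrocyte arrays above background in each group.

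Syt11, a synaptotagmin that does not bind calcium and is found in glia as well, was high in both cultures. It was at 6.41, 6.21, 6.32 and 6.32 (control) and 6.30, 6.01, 6.18 and 6.0 (Klotho) in neurons and at 5.68, 5.68, 5.44 and 4.96 (control) and 5.66, 5.49, 5.67 and 5.38 (Klotho) in astrocytes. The control groups did not overlap, with a change of -0.87 ± 0.21 and an adjusted p of 0.00703, and the change among Klotho cultures was -0.58 ± 0.16 (adjusted p = 0.0119). The call among controls was lost with median scaling, with quantile scaling and in the deposited value table, and that among Klotho cultures with quantile scaling.

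The SNARE genes divided. Stx1a, the plasma membrane syntaxin of terminals, was lower, with changes of -4.89 and -5.20. Vamp2, the main synaptobrevin of brain vesicles, was at 5.66, 5.02, 5.14 and 5.01 in neuron control, 5.47, 5.30, 5.35 and 5.34 in neuron Klotho, 2.74, 2.66, 2.88 and 3.05 in astrocyte control and 1.87, 2.0, 2.83 and 2.40 in astrocyte Klotho cultures. It was lower on every astrocyte array, with changes of -2.37 ± 0.21 and -3.09 ± 0.22. Snap25, the plasma membrane SNARE that botulinum toxin A cleaves, did not pass the test. Its levels were 5.20, 5.04, 5.13 and 4.97 (control) and 5.35, 5.27, 5.25 and 5.19 (Klotho) in neurons and 3.83, 3.56, 6.13 and 6.52 (control) and 4.34, 5.23, 5.57 and 5.38 (Klotho) in astrocytes. The neuron arrays ran from 4.97 to 5.35 while the astrocyte arrays spread from 3.56 to 6.52, on both sides of them. The changes were -0.08 ± 0.65 (adjusted p = 0.930, 95% interval -1.55 to 1.40) and -0.13 ± 0.26 (adjusted p = 0.670).

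Vamp1, the synaptobrevin more used in spinal cord and motor terminals, was the member called higher in astrocytes. It was at -0.43, -1.21, -1.03 and -1.0 on neuron control arrays and -0.44, -0.41, 0.78 and 0.63 on astrocyte control arrays, with a narrow overlap, and the change was 1.06 ± 0.34 (adjusted p = 0.0271). On the Klotho arrays it was at -0.35, -0.78, -0.98 and -0.90 in neurons and -1.54, -1.51, 0.29 and -0.05 in astrocytes, with a change of 0.05 ± 0.42 (adjusted p = 0.927). The call among controls was lost in the value table, with the value table's treatments (a change of 0.69), and without neuron control replicate 2, 3 or 4 or astrocyte control replicate 3 or 4.

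Complexins clamp and promote SNARE-driven fusion, and the pair differed. Cplx1 was lower in astrocytes, with fitted changes of -10.40 ± 0.49 and -10.03 ± 0.26, but 1 of 4 astrocyte arrays was above background in each comparison, so their size depends on signals at background. Cplx2 was at 6.32, 6.62, 7.31 and 7.62 (control) and 6.40, 6.95, 7.0 and 7.02 (Klotho) in neurons and at 5.41, 5.38, 7.68 and 7.64 (control) and 5.43, 6.82, 7.46 and 6.99 (Klotho) in astrocytes. The arrays overlapped, and the changes of -0.44 ± 0.61 and -0.17 ± 0.39 did not pass the test (adjusted p = 0.574 and 0.724). Of the Munc13 genes, whose proteins open syntaxin to prime vesicles, Unc13a was lower, with a change of -4.19 among controls, with 1 astrocyte array above background, and a fold of at least 14.8 among Klotho cultures. Unc13b, which is also expressed outside the nervous system, gave -0.48 ± 0.20 (adjusted p = 0.0680) and -0.61 ± 0.20 (adjusted p = 0.0244), and its call among Klotho cultures was lost with the replicate block, with quantile scaling, with the percentile over probes above background on all arrays, in the value table, with its treatments, and without neuron Klotho replicate 2 or 4 or astrocyte Klotho replicate 2.

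Rab3 proteins are vesicle GTPases that recruit effectors at the active zone. Rab3a, the main form in brain, was lower, with changes of -4.95 and -5.59. Rab3b was at 4.93, 4.35, 4.71 and 4.52 (control) and 4.65, 5.01, 4.81 and 4.77 (Klotho) in neurons and at -1.37, -1.55, -2.40 and -1.39 (control) and -1.77, -2.33, -2.35 and -2.22 (Klotho) in astrocytes, with no overlap, and was lower, with changes of -6.30 and -6.98. Rab3c was the exception, at 4.70, 4.90, 4.97 and 5.38 (control) and 4.86, 4.77, 4.69 and 4.78 (Klotho) in neurons and 3.74, 3.63, 6.02 and 6.02 (control) and 4.10, 5.56, 5.58 and 5.71 (Klotho) in astrocytes. Its astrocyte arrays lay on both sides of the neuron arrays, and the changes of -0.14 ± 0.59 and 0.46 ± 0.34 did not pass (adjusted p = 0.862 and 0.248). Rph3a, the Rab3 effector rabphilin, was at 1.42, 0.83, 0.85 and 0.74 (control) and 1.43, 1.13, 1.13 and 1.0 (Klotho) in neurons and below background on all 8 astrocyte arrays, at -6.32, -7.35, -7.74 and -8.19 (control) and -7.57, -8.07, -7.89 and -7.81 (Klotho). It was at least 149-fold and at least 128-fold lower.

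The 5 active zone scaffold genes were all lower in astrocytes in both comparisons. Bsn, the giant scaffold bassoon, was at 3.23, 2.47, 2.57 and 2.39 (control) and 3.49, 2.72, 2.58 and 2.53 (Klotho) in neurons and at -3.70, -3.77, -2.44 and -2.05 (control) and -3.89, -4.27, -2.78 and -2.52 (Klotho) in astrocytes. The groups were widely apart, with changes of -5.65 ± 0.42 and -6.20 ± 0.41 (adjusted p = 5.15e-06 and 7.65e-07). Erc2, the scaffold CAST that binds RIM and bassoon, was at 4.62, 4.34, 4.30 and 4.31 (control) and 4.49, 4.07, 4.15 and 4.05 (Klotho) in neurons and 0.05, 0.06, -0.58 and -1.02 (control) and -0.36, -0.52, -0.49 and -0.60 (Klotho) in astrocytes, a change of -4.77 and -4.68. Pclo, bassoon's relative piccolo, was lower, with changes of -3.27 and -2.95. Rims1 was above background on 3 of 4 astrocyte Klotho arrays. By the brightest probes, Rims1 and Rims2, whose proteins tie calcium channels and Rab3 to the release site, had the smallest changes of these genes. They were -2.06 and -2.44 for Rims1 and -1.44 and -2.06 for Rims2. The ranking depends on the probe, since the other Rims1 probe gave -5.42 and -4.86, with 2 of the 8 astrocyte arrays above background. Other probes of Erc2 and Pclo are given below.

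The 4 genes of vesicle endocytosis were lower too. Dnm1, the neuronal dynamin that pinches vesicles off, was at 6.56, 5.49, 5.62 and 5.56 (control) and 6.43, 5.56, 5.58 and 5.58 (Klotho) in neurons and at -0.11, -0.24, -0.87 and -0.67 (control) and -0.93, -0.82, -1.23 and -0.93 (Klotho) in astrocytes. No arrays overlapped, and the changes were -6.28 ± 0.30 and -6.76 ± 0.23. Amph, the dynamin partner amphiphysin, was at 5.74, 5.38, 5.51 and 5.45 (control) and 5.80, 5.30, 5.44 and 5.30 (Klotho) in neurons and 1.78, 1.75, 0.73 and 0.97 (control) and 1.44, 0.96, 0.92 and 0.99 (Klotho) in astrocytes, a change of -4.21 and -4.38. Sh3gl2, which encodes the curvature protein endophilin A, was at 2.61, 1.70, 2.08 and 1.85 (control) and 2.60, 2.14, 2.15 and 2.22 (Klotho) in neurons and at -6.34, -6.16, -6.59 and -6.41 (control) and -5.04, -6.73, -5.69 and -6.58 (Klotho) in astrocytes. It was above background on 1 of the 8 astrocyte arrays, with a change of -8.44 among controls and a fold of at least 263 among Klotho cultures. Synj1, the phosphatase that uncoats vesicles, had the smallest changes of the 4, -1.55 and -1.36. The neurexins, presynaptic adhesion receptors, were lower, with changes of -2.21 and -2.24 for Nrxn2 and of -2.92 and -2.23 for Nrxn3.

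**Figure D2:**
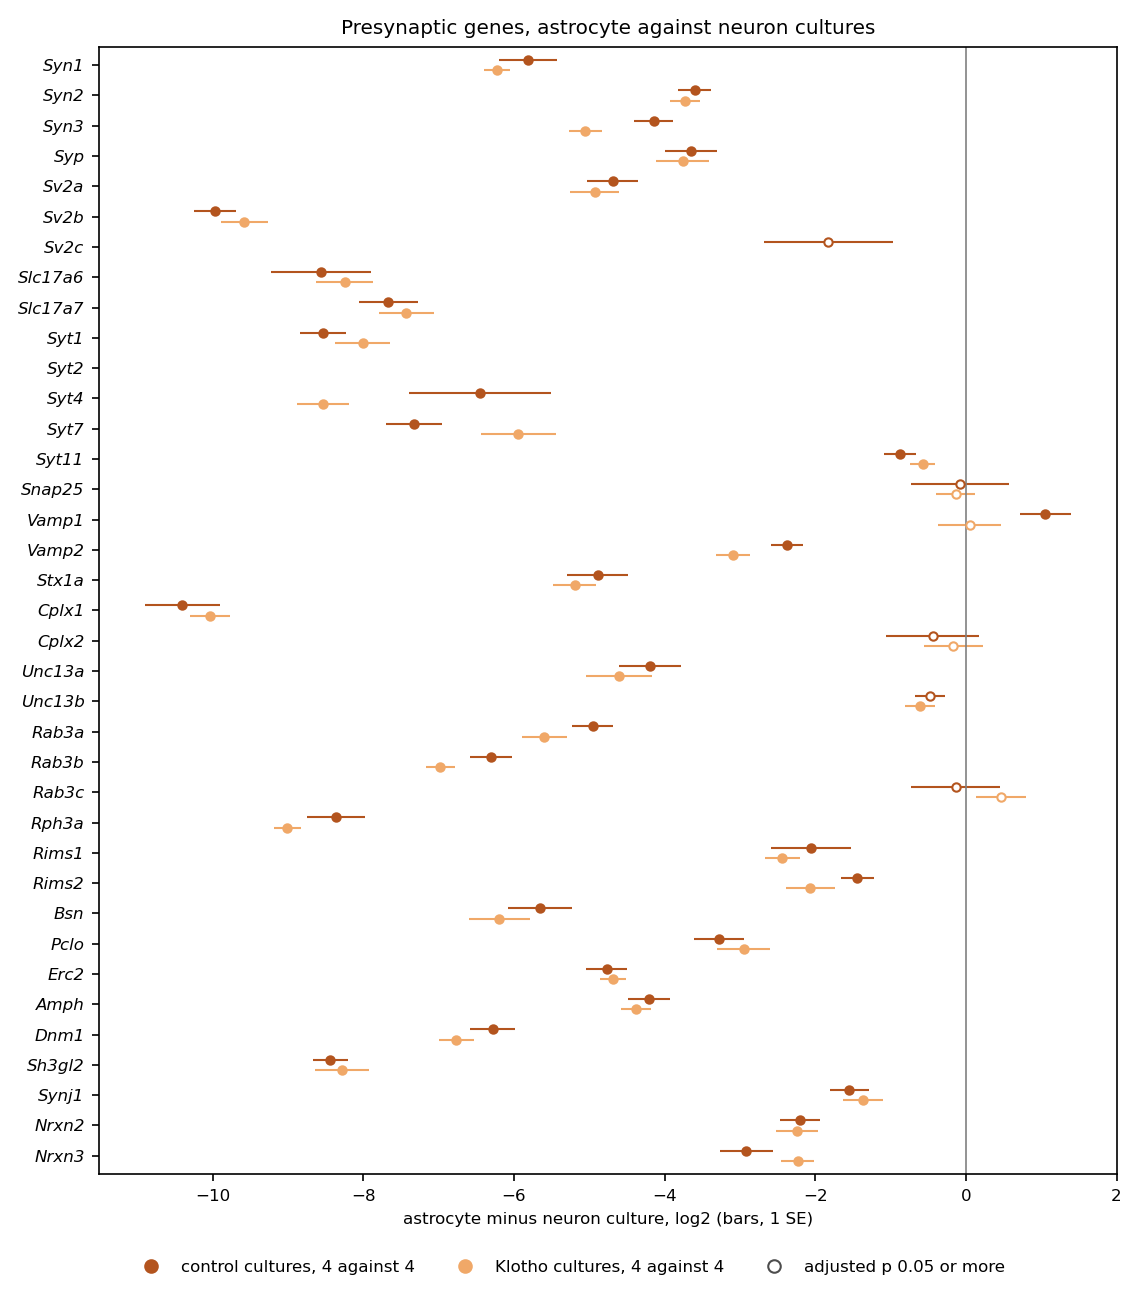
Log2 difference of astrocyte minus neuron arrays for each presynaptic gene, with bars of 1 SE, for control and for Klotho cultures, ordered by role, and open symbols for an adjusted p of 0.05 or more. Cplx1, Syt1 and Sh3gl2 lie far below 0, while Snap25, Rab3c and Cplx2 have open symbols in both comparisons. Points are fitted differences, also for genes mostly or wholly below background in astrocytes. Positions of such genes, Cplx1 and Sh3gl2 among them, depend on the background.

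Genes with several probes showed how far the brightest probe represents its gene. The 37 members had 60 probes, and 14 genes had more than 1. In 13 of these 14 every probe had a negative difference of astrocyte minus neuron controls. The exception was the second probe of Syn3 at 0.42, which was above background on only 1 neuron control array and 1 astrocyte control array. The probes of a gene nevertheless gave differences more than 2 apart on the log2 scale in 11 of the 14, with a median range of 3.39, although some of these probes were below background in astrocytes. Among the 9 genes with more than 1 probe above background on all 8 control arrays, the differences were more than 2 apart in 6, with a median range of 2.57. Cplx2 had 3 probes at -0.44, -0.32 and -0.29 and 1 at -3.17. Rab3c had 2 probes at -0.14 and -0.44 and 1 that was above background on 0 of the 8 astrocyte arrays and at least 1339-fold lower among controls. Erc2 had probes at -4.77 and -0.01, Pclo had probes at -3.27 and -0.20 and others mostly or wholly below background in astrocytes, and Dnm1 had probes at -6.28 and -1.44. Nrxn2, by contrast, had probes that gave -2.21 each. The probe sequences were not used here, so which transcripts each probe reads was not tested. With the mean of all probes in place of the brightest, Cplx2 and Rab3c also passed the test as lower in both comparisons, and 33 members were lower in each. For Rab3c among Klotho cultures this reversed the sign, since its brightest probe gave 0.46. With that brightest probe and without astrocyte Klotho replicate 1, Rab3c was called higher in astrocytes among Klotho cultures.

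**Figure D3:**
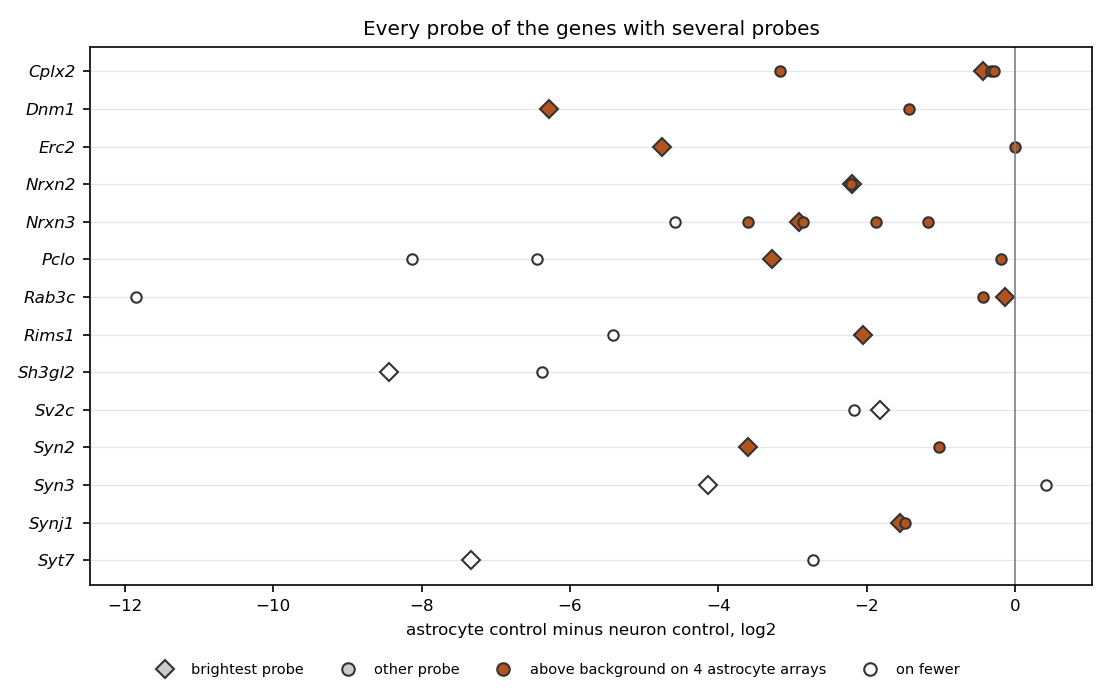
Log2 difference of astrocyte control minus neuron control for each of the probes of the 14 presynaptic genes with more than 1 probe, with diamonds for the brightest probe and open symbols where fewer than 4 astrocyte control arrays were well above background. The probes of Cplx2, above background on all of these arrays, span from -3.17 to -0.29, while the lowest probe of Rab3c is open and its position depends on the background.

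Other presynaptic genes, from a separate list that holds further synaptotagmins, SNAREs, transporters and scaffolds, were lower in astrocyte than neuron controls in 36 of 50 tested cases and higher in 2, with a median of -2.84. The 2 higher genes were Syt17 at 0.85 and Dnm2, the dynamin of all cells, at 0.60. Slc32a1, which loads GABA and glycine, gave -11.90 and Doc2b, a calcium sensor of spontaneous release, -7.85. Among Klotho cultures 36 of 47 were lower and 2 higher, with a median of -3.00, and the higher genes were Dnm2 at 0.74 and the endocytic scaffold Itsn1 at 0.63.

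The astrocyte arrays differed among themselves in presynaptic genes by their row on the slide. Replicates 1 and 2 of both astrocyte groups lay in row 1 and replicates 3 and 4 in row 2, so each row held 2 arrays of either treatment. Rows and replicate numbers cannot be told apart, and the labels do not say whether they mark separate culture preparations. Of the 25 members tested with limma, 13 were higher in row 2 and 2 lower, against 20.9% of everything tested that was higher and 24.9% that was lower. The members' median difference, row 2 minus row 1, was 0.47, and that of everything tested was -0.05. With median scaling the median of everything moved to -0.49 and the split became 8 higher and 6 lower, and with the percentile taken over probes above background on all arrays it moved to 0.23 and the split became 14 and 0. The members' median lay 0.52 above that of everything, a gap that those 2 scalings cannot alter. It was 0.37 without a background filter, 0.58 with normexp and 0.66 with quantile scaling.

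Genes that had not passed the test between the cultures led this comparison. Cplx2 was at 5.41, 5.38, 5.43 and 6.82 on the row 1 arrays (controls, then Klotho) and at 7.68, 7.64, 7.46 and 6.99 on the row 2 arrays. Snap25 was at 3.83, 3.56, 4.34 and 5.23 in row 1 and at 6.13, 6.52, 5.57 and 5.38 in row 2. Rab3c was at 3.74, 3.63, 4.10 and 5.56 in row 1 and at 6.02, 6.02, 5.58 and 5.71 in row 2. In all 3 genes every row 2 array lay above every row 1 array, and astrocyte Klotho replicate 2 was the row 1 array nearest to row 2. The differences were 1.68 ± 0.34 (SE, n = 4 against 4, adjusted p = 0.00500) for Cplx2, 1.66 ± 0.39 (adjusted p = 0.00834) for Snap25 and 1.57 ± 0.39 (adjusted p = 0.0113) for Rab3c.

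Among SNAREs, Vamp1 was at -0.44, -0.41, -1.54 and -1.51 in row 1 and 0.78, 0.63, 0.29 and -0.05 in row 2, without overlap, and was higher in row 2 by 1.39 ± 0.32. Stx1a was higher by 1.00. Of the active zone scaffold genes 4 of 5 were higher. Bsn was at -3.70, -3.77, -3.89 and -4.27 in row 1 and at -2.44, -2.05, -2.78 and -2.52 in row 2, a difference of 1.46 ± 0.20 (adjusted p = 0.00356). Pclo was higher by 1.15, Rims1 by 1.41 and Rims2 by 0.85, while Erc2 gave -0.48 and did not pass. Nrxn3, Synj1, Sv2a and Unc13b were higher by 0.82, 0.69, 0.57 and 0.47. The call of Unc13b was lost without any 1 of the 8 arrays, those of Sv2a and Nrxn3 without any 1 of the 4 control arrays or Klotho replicate 3 (Sv2a also without Klotho replicate 2), and that of Rims2 without control replicate 3 or 4 or Klotho replicate 3. These 4 genes lost their calls with median scaling and without a background filter, and Synj1 lost its own with median scaling. Sv2a and Rims2 also lost theirs with quantile scaling and in the value table, Rims1 and Unc13b with normexp, and Pclo with the mean of all probes.

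The 2 genes lower in row 2 were Syt1, with -0.88 ± 0.24 (adjusted p = 0.0158), and Amph, with -0.58 ± 0.20 (adjusted p = 0.0431). The call of Amph was lost with quantile scaling, with the percentile over probes above background on all arrays, without a background filter, in the value table, with slide and column as blocks and without any 1 array other than astrocyte Klotho replicate 2, and the percentile scaling also ended that of Syt1. Syt1 was at -2.02, -1.92, -1.13 and -1.47 in row 1 and at -2.29, -2.84, -2.28 and -2.63 in row 2, without overlap. Amph was at 1.78, 1.75, 1.44 and 0.96 in row 1 and at 0.73, 0.97, 0.92 and 0.99 in row 2, where the row 1 array at 0.96 lay among those of row 2. The number of lower genes was 1 without any 1 of the 4 astrocyte control arrays or astrocyte Klotho replicate 3 or 4, and 5 without astrocyte Klotho replicate 2.

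The row difference was also read within each slide, which holds 1 treatment by the scanner files and 2 arrays of each row. On the control slide both row 2 arrays lay above both row 1 arrays for 15 of the 25 members and below for 7, against 40.8% and 43.9% of everything tested, with a member median of 0.35. On the Klotho slide they lay above for 14 and below for 1, against 25.5% and 31.3%, with a median of 0.56. Amph lay below on the control slide and overlapped on the other.

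**Figure D4:**
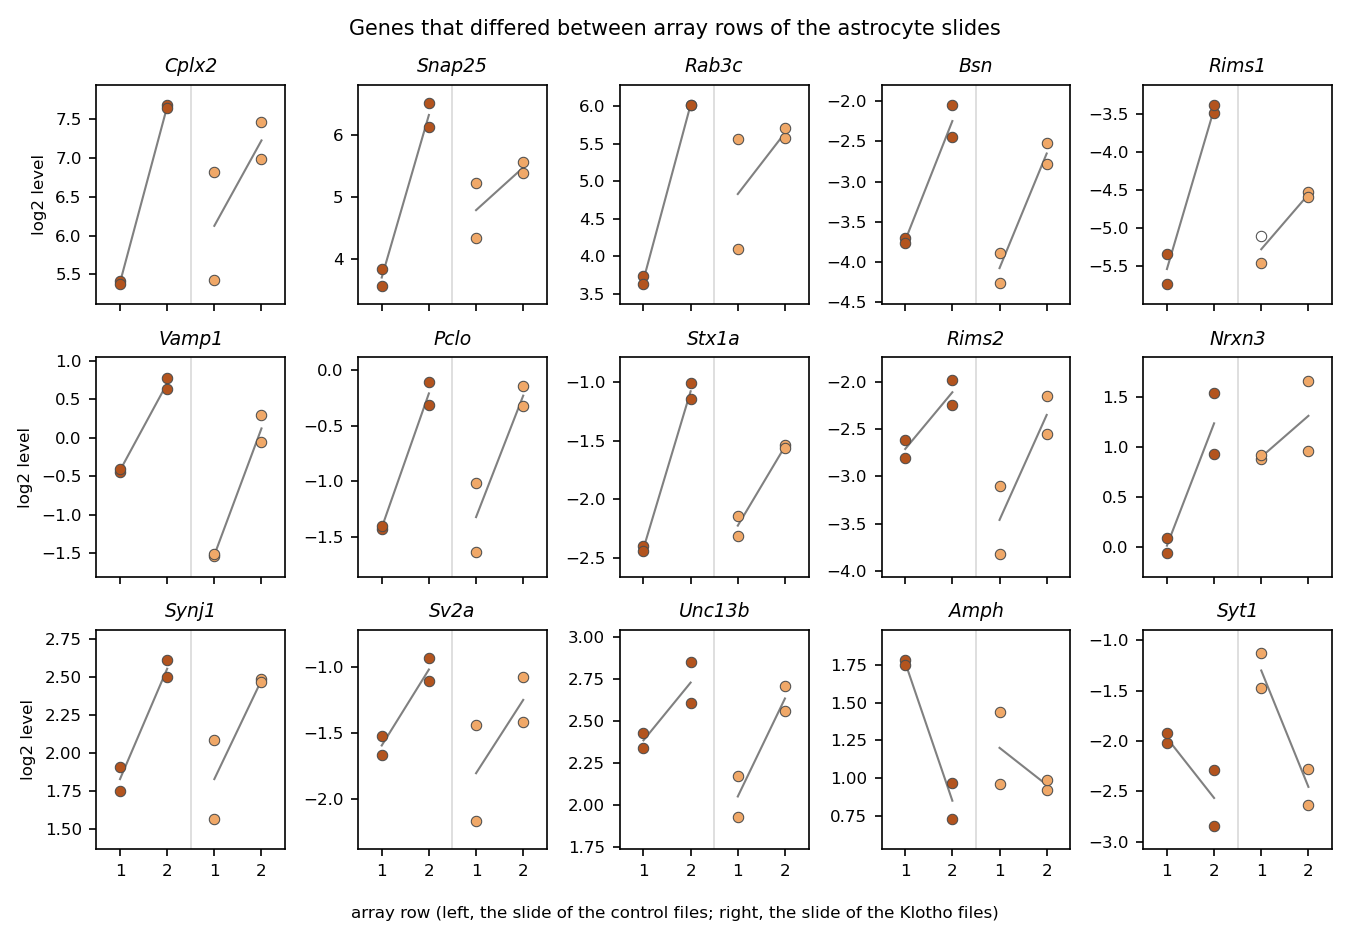
Log2 level of presynaptic genes on the 8 astrocyte arrays by slide row, relative to the array's 75th percentile, with dark points for the slide of the control files, light points for the slide of the Klotho files, open symbols where not well above background and lines joining the means of 2 arrays. Cplx2, Snap25, Rab3c and Bsn are higher in row 2 on both slides, and Syt1 is lower in row 2 on both.

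The probes of a gene did not move alike between rows. The 3 Cplx2 probes near 0 between the cultures gave row differences of 1.68, 0.92 and 1.44, and the remaining probe gave -0.40. For Rab3c the probes above background gave 1.57 and 1.76. Over the 8 astrocyte arrays, the brightest probe of Cplx2 correlated with those of Rab3c and Snap25 at r = 0.975 and 0.963 and with the remaining Cplx2 probe at r = -0.818, values that describe arrays of 2 slides and share the row difference.

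Some markers of other cells also differed between the rows, beside 20.9% of everything tested that was called higher and 24.9% called lower. Of 8 pan-neuronal markers tested 5 differences were positive and 3 negative, with a median of 0.09. Map2 was called higher in row 2 by 0.54, and Tubb3, Elavl4 and Stmn2 were called lower by 1.15, 0.73 and 2.39. The summed level of the pan-neuronal markers was 3.59 to 4.22 in row 1 and 3.25 to 3.55 in row 2. The summed level of 8 interneuron markers was 2.16 to 3.44 in row 1 and 3.81 to 5.05 in row 2, with Sst above background on no astrocyte array. Of 7 interneuron markers tested 1 was called, Lhx6, higher by 2.01, while 4 of the 7 differences were negative and the median was -0.08. The 10 oligodendrocyte lineage markers summed to 4.97 to 6.37 and 6.40 to 6.99, with 6 positive and 4 negative differences, 2 of them called as higher and 0 as lower. The 9 astrocyte markers summed to 8.81 to 9.04 in row 1 and 8.28 to 8.69 in row 2. Of their differences 8 were negative and 1 positive, with a median of -0.29. The 3 called were Gfap, S100b and Aldoc, lower in row 2 by 0.67, 0.97 and 0.74. The part of these cells in the row difference was not tested. Among the other presynaptic genes 5 of 43 were higher in row 2 and 8 lower, with a median of -0.05. Dnm3, a neuronal dynamin, was higher by 1.84 and Snap23, the SNARE of non-neuronal cells, by 1.74, whereas Vamp3, the synaptobrevin of endosomes, fell by 1.52 and Synpr, a relative of synaptophysin, by 1.11.

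No presynaptic gene passed the test for Klotho in the neuron cultures. With limma 0 of 36 members were called, against 0.15% of everything tested. None (0) had an unadjusted p below 0.05, against 4.30% of everything tested. That fit held no block. With a block for replicate number the share of everything rose to 13.6%, again with 0 members called. The members' count of such p-values with the block is not given. The changes, Klotho minus control, ran from -0.29 for Pclo to 0.34 for Cplx1, with a median of -0.01 beside -0.03 for everything tested. Positive values numbered 17 and negative values 19. The smallest p belonged to Snap25, Syt11 and Erc2, whose array values are given above. Snap25 gave 0.18 ± 0.10 (95% interval -0.04 to 0.40), Syt11 -0.19 ± 0.11 (95% interval -0.43 to 0.06) and Erc2 -0.20 ± 0.13 (95% interval -0.51 to 0.10), with an adjusted p of 0.988 each. The groups overlapped in every member, against 4.21% of everything tested whose 4 Klotho arrays lay wholly above or below the controls. Standard errors ran from 0.10 to 0.49.

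Replicate 1 of both neuron groups stood apart from the other arrays. It lay in slide column 1, so column and replicate number cannot be told apart. For 29 of the 36 members both of these arrays were above the other 6, against 28.1% of everything tested. The median difference, column 1 minus the others, was 0.57, beside 0.03 for everything tested. It was widest for Slc17a6 at 1.62, Unc13a at 1.49, Slc17a7 at 1.46, Sv2c at 1.37, Sv2a at 1.24, Syp at 1.22 and Syt7 at 1.21. Among the neuron Klotho arrays Sv2c was above background on replicate 1 only, so its difference depends partly on signals at background. Cplx2 was the member for which both arrays lay below the others, at -0.73. Of the other presynaptic genes 36 of 50 were above and 4 below. Of everything tested 26.8% lay below. None (0) of 9 astrocyte markers were above and 5 were below, with a median of -0.56. Of 5 microglia markers 0 were above and 3 below, with a median of -0.94. Neuronal and progenitor lists were mixed. Of 10 pan-neuronal markers 6 were above and 3 below (median 0.23). Of 6 excitatory projection neuron markers 4 were above and 0 below (median 0.23). Of 8 interneuron markers 3 were above and 4 below (median -0.22). Of 6 neural progenitor and dividing markers 1 was above and 2 below (median 0.44). The part of these cells in the column difference was not tested. Without both column 1 arrays, a choice made after seeing the data, Klotho again gave 0 called members, with 14 of 36 at an unadjusted p below 0.05, against 23.4% of everything tested.

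**Figure D5:**
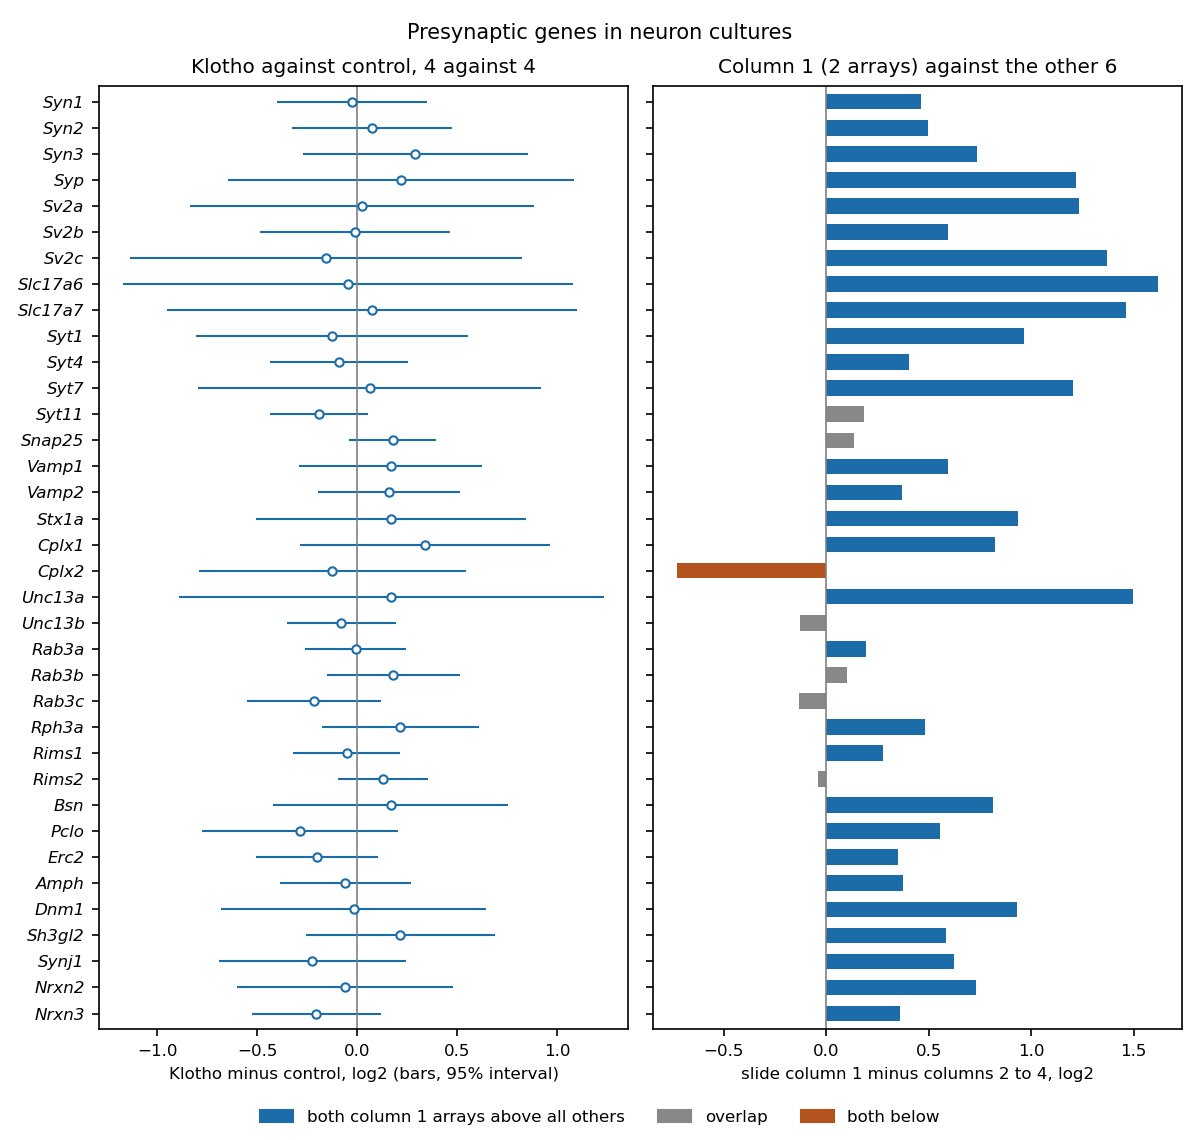
Left, log2 difference of Klotho minus control in neurons for each presynaptic gene with its 95% interval; right, log2 difference of the 2 column 1 arrays minus the mean of the other 6, coloured by whether both lay above, among or below them. The Klotho differences stay between -0.29 and 0.34, while the column difference reaches 1.62 for Slc17a6 and is -0.73 for Cplx2.

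In the astrocyte cultures Klotho likewise gave 0 called members of 25 tested with limma, with 0% of everything tested called. None (0) had an unadjusted p below 0.05, against 3.77% of everything tested. That fit leaves the row difference in the spread. With array row as a block the share of everything rose to 11.1%, again with 0 members called. The members' count of such p-values with the block is not given. The changes ran from -0.84 for Vamp1 to 0.48 for Nrxn3, with a median of -0.14 beside -0.01 for everything tested. The smallest p belonged to Vamp2, at -0.56 ± 0.25 (95% interval -1.14 to 0.02), Dnm1, at -0.50 ± 0.23 (95% interval -1.03 to 0.03), and Rab3b, at -0.49 ± 0.28 (95% interval -1.14 to 0.15). The adjusted p of each was 1.00. None (0) of the 25 tested members was without overlap between the groups, against 2.55% of everything tested. Syn3, too dim in astrocytes to be tested there, had all 4 Klotho values below the control values, at signals that were above background on 4 of the 8 arrays. With the treatments as in the value table, also 0 members were called, and the median was -0.01.

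The test of whether Klotho acted differently in the 2 cultures, an interaction term over all 16 arrays, called 0 of 36 members against 0.0881% of everything tested. An unadjusted p under 0.05 was found for 2 of 36 members, near the 5.26% of everything tested. They were Syn3, with a difference of effects, astrocytes minus neurons, of -0.91 ± 0.34 (limma adjusted p = 0.851), and Vamp2, with -0.72 ± 0.30 (adjusted p = 0.929). Syt7 gave 1.39 ± 0.67 (adjusted p = 0.957), but it was above background on 1 astrocyte array. Without astrocyte control replicate 3 the interaction called 1 member, Syt4 (adjusted p = 0.0238), which was at -1.34, -1.61, -6.21 and -2.56 on the astrocyte control arrays. Its control value of -6.21 lay below background and far under the other controls, and its astrocyte Klotho arrays were at -5.02, -6.04, -5.21 and -4.14. Of the other presynaptic genes 0 were called in any of the 3 Klotho comparisons.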

How the data were processed

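RNA of 16 samples, 4 per group, was measured on one-colour Agilent arrays after Cy3 labelling of 200 ng. Per the file headers, the deposited intensity columns were made by the authors with Feature Extraction 12.0.3.1 (protocol GE1_1200_Jun14, design 028005) and are background-subtracted within the array. The deposited value table holds a score, the log2 intensity scaled to mean 0 and SD 1 in each column. Of its 16 columns 10 fit the scanner array deposited for the sample they name, and 6 fit another astrocyte sample, 4 of them with the other treatment (differences at most 0.00502, next best array at least 1.67). The scanner files were followed, and the value table and its treatments were alternatives.

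An array has 62976 spots (3671 of them controls) for 55681 probes. Of these 28325 (50.9%) were named through RefSeq accessions matched without version to a GRCm38.p6 table, and the others were tested without a name. Log2 processed intensity was centred on the array's 75th percentile, and the brightest probe stood for a gene. A feature was tested if it was well above background on every array of 1 or more of the groups compared. Fits used limma 3.58.1 under R 4.3.3, with Benjamini-Hochberg adjustment over all features tested and a threshold of 0.05. No spot was saturated (0). The number of arrays limits the precision, with a median SE of the members' changes of 0.206 in neurons and 0.373 in astrocytes. Arrays of the same replicate number within a cell type share a slide column, and in astrocytes also a row. Their deviations from the group means correlated at 0.218 to 0.815 in neurons and 0.191 to 0.752 in astrocytes. Control replicates 1, 3 and 4 correlated best with the Klotho array of the same number. Control replicate 2 did so with Klotho replicate 4 in neurons and Klotho replicate 1 in astrocytes. The numbers therefore pair arrays only in part. No per-sample column stayed unused (0).

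Members and lists were chosen with earlier results of these data known. Array values were to be given, per comparison, for up to 4 called members per direction with the largest change among those above background on all compared arrays, for the 3 with the smallest p where none was called, for up to 4 with the largest bound, and for the 4 highest on the astrocyte arrays. Other presynaptic genes were named as the 2 largest changes per direction. Vamp1 in the row comparison, and Syt4, were chosen after their values were seen. The code was tested on simulated data. Alternatives were normexp (offset 50, on the median signal), median, quantile and percentile scaling, other filters, the mean of all probes, blocks by replicate, slide, row or column, leaving out each array, and leaving out both neuron arrays of column 1 (added after seeing the data). Preparation used Python 3.11.15 with pandas 2.3.3 and numpy 2.4.6, statistics scipy 1.17.1, and plots matplotlib 3.10.9.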

Additional observations from a re-analysis of the deposited data

Results flagged for a closer look

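In 14 of the 80 groups of 4 arrays examined, 4 for each of 20 described genes, 1 array stood apart from the other 3 by Dixon's criterion, where chance gives about 1 group in 20. Of these 11 concern replicate 1 of the neuron groups, which lies in slide column 1. In neuron control, replicate 1 was the highest array for Erc2 (4.62, others 4.30 to 4.34), Dnm1 (6.56, others 5.49 to 5.62), Syt1 (7.0, others 5.97 to 6.06), Rph3a (1.42, others 0.74 to 0.85) and Slc17a6 (2.54, others 0.66 to 0.89). In neuron Klotho, replicate 1 was the highest for Dnm1 (6.43, others 5.56 to 5.58), Syn3 (-0.64, others -1.21 to -1.17), Syt7 (0.00, others -1.17 to -1.01), Syt1 (6.84, others 5.82 to 5.98) and Slc17a7 (0.67, others -0.73 to -0.49). It was the lowest for Cplx2, at 6.40 against 6.95 to 7.02.

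In the astrocyte groups, control replicate 3 was the lowest array for Rab3b, at -2.40 against -1.55 to -1.37. Astrocyte Klotho replicate 1 was the highest for Amph, at 1.44 against 0.92 to 0.99, and the lowest for Rab3c, at 4.10 against 5.56 to 5.71.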

How the results depend on the processing

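The counts of members lower in astrocytes and the absence of called members under Klotho stayed within 1.5 times under each alternative run, with these exceptions. With features above background on every compared array, 20 members were lower among Klotho cultures, since 24 could be tested. The interaction called 0 to 1 members when single arrays were left out, the 1 being Syt4 without astrocyte control replicate 3. Of the row difference, higher members numbered 8 with median scaling and 9 to 12 with single arrays left out. Lower members numbered 6 with median scaling, 1 with quantile scaling, 1 without a background filter, 1 in the value table, 1 with slide and column as blocks, 0 with the percentile over probes above background on all arrays, and 1 to 5 with single arrays left out. The cause was not tested, beyond the scaling shifts given above. With the replicate block 0 members were called under Klotho in neurons, in astrocytes and in the interaction, and 30 were lower in astrocytes in either comparison, so that it changed no call apart from that of Unc13b among Klotho cultures. Values for single genes kept direction and side of the threshold in 608 cases and lost the threshold in 20. In 8 cases a change that had not passed the test turned sign. For Klotho in neurons, Syt11 was 0.04 and Erc2 0.01 in the value table, and Erc2 was 0.03 with the mean of all probes. For Klotho in astrocytes, Dnm1 was 0.04 in the value table and 0.12 with its treatments, and Rab3b 0.05 and 0.10. The interaction of Syn3 was 0.01 in the value table. The cause was not tested. Signals near background limit the dimmest genes in astrocytes to bounds.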
